A study of Mus musculus with 3 samples.

Results

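Chromatin immunoprecipitation followed by sequencing (ChIP-seq) of Runx3 in mouse cartilage cells was described here for the intergenic windows that lay over 0.5 kb and up to 30 kb from a transcription start site (TSS). These windows are the stretch between the promoter and distant intergenic DNA, on either side of the flanking genes. A window was a member when every deposited neighbouring gene placed it outside the gene body and when the smallest distance from its centre to a TSS was over 500 bp and at most 30000 bp. This rule was met by 195 of the 1000 windows of the main list (19.5%, Wilson 95% interval 17.2 to 22.1). The study reported many more Runx3 peaks than this list holds, so the shares given here describe the list and not all peaks. The remaining windows comprised 254 within 500 bp of a TSS, 299 in genes away from the TSS and 252 intergenic windows over 30 kb from any TSS.

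The cells were superficial zone (SFZ) chondrocytes of C57BL/6 mice, taken per the study's methods from 5-day-old animals, and they carried a vector for 3xFLAG-tagged Runx3 introduced by lipofection. All 3 libraries came from such transfected cells, namely the FLAG pull-down (Clone M2 antibody, RUNX3-FLAG), the pull-down with antimouse-IgG (IgG) and the input chromatin. Each group was 1 library, so no condition was tested and all intervals are Wilson 95% intervals over windows, covering counting error only. The tagged protein was made from a vector, which limits these windows as a model of endogenous Runx3. Windows of DNA hold no expression values, so the cell type was not checked against markers, and the depth of the libraries was unknown.

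Runx3 belongs to the Runx family of transcription factors, which bind DNA together with the cofactor Cbfb through a short sequence ending in GGT or GGC. Runx factors are known for their part in cartilage and bone, where they act from promoters and from enhancers that can lie far from the gene they serve. Windows upstream of a TSS and outside genes are the places where such proximal enhancers are usually sought, although the nearest gene is not always the gene that an enhancer serves. The Runx motif was searched here on either strand, as TGTGGT or its variant TGCGGT and, with a final C in place of the last letter, as TGTGGC or its variant TGCGGC.

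The first set of sequences shows how the motif sat in the best-ranked member windows and in the best-ranked member of each gene list described below. The sequences were read from the plus strand of mm9, each is 101 bp long, and capitals mark matches to the Runx motif on either strand.
Zfp28 (rank 5, chr7:6362920-6363020): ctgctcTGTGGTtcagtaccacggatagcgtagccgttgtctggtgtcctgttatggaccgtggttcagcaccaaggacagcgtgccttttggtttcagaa
Sf3a3 (rank 10, chr4:124386372-124386472): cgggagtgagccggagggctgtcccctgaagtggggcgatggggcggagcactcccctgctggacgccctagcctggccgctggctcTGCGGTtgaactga
Gpx6 (rank 15, chr13:21418913-21419013): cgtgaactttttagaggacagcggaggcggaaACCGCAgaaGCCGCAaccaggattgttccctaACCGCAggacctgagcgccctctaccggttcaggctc
Nfkb2 (rank 22, chr19:46378724-46378824): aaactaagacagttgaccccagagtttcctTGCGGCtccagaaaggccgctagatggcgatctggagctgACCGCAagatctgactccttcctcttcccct
Col6a2 (rank 117, chr10:76111566-76111666): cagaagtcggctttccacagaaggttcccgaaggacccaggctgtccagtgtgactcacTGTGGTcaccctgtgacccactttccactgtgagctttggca
Pxn (rank 227, chr5:115939933-115940033): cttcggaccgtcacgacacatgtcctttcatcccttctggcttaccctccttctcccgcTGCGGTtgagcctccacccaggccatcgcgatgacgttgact
Tle4 (rank 589, chr19:14695057-14695157): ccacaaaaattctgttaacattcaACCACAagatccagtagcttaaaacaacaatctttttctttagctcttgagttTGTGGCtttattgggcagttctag
Cilp2 (rank 952, chr8:72398753-72398853): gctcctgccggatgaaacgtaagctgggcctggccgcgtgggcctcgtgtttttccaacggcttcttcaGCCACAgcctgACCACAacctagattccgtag

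The windows of the next 5 genes held no match to these letters and so have no capitals. They are shown because 4 of them were the best-ranked members of their gene lists and the fifth, Ccdc77, was among the 6 best-ranked members.
Ccdc77 (rank 4, chr6:120314209-120314309): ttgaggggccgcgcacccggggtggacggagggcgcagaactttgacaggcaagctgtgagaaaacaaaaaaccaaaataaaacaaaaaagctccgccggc
Prelp (rank 46, chr1:135838617-135838717): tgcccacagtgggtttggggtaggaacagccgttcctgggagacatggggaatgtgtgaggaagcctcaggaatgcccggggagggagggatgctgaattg
Fosb (rank 251, chr7:19902194-19902294): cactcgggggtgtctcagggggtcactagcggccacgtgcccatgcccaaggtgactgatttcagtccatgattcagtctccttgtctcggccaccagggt
Adamts17 (rank 837, chr7:73957612-73957712): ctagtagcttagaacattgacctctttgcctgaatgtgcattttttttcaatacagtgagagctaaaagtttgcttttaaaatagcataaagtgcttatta
Id4 (rank 863, chr13:48333041-48333141): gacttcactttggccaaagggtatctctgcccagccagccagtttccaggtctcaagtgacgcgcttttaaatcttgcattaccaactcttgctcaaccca

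Runx motifs were then counted in the member windows. Of the 195 members, 129 (66.2%, 59.3 to 72.4) held at least 1 match, against 66.1% of all 1000 windows. Among the members, 90 held 1 match, 35 held 2 and 4 held 3 or more. The flanks of the same windows, cut to the same length 500 bp away, held a match in 32 of 195 (16.4%, 11.9 to 22.2) on the left and in 25 (12.8%, 8.84 to 18.2) on the right. The window exceeded both flanks (exact McNemar test, two-sided, adjusted over the 2 sides p = 3.69e-22 and 2.72e-24). In 101-bp tiles of the whole genome that met the same rule by the GENCODE annotation of mm9, 13.8% of 3983006 tiles held a match.

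Set beside the other windows, the members lay between promoters and distal sites in motif content. The motif was present in 137 of 254 windows within 500 bp of a TSS (53.9%, 47.8 to 60.0), in 208 of 299 windows in genes (69.6%, 64.1 to 74.5) and in 187 of 252 windows over 30 kb away (74.2%, 68.5 to 79.2). The odds of a motif were 1.67 times higher in members than in windows within 500 bp of a TSS (Fisher's exact test, two-sided, adjusted over 4 comparisons p = 0.0467). By the same Fisher's exact test this call was lost in narrower windows of 51 bp (adjusted p = 0.157), in wider windows reaching 100 bp to either side of the centre (0.104) and in the top tercile of ranks alone (0.377). Differences from the windows in genes (odds ratio 0.86, adjusted p = 0.575), the distal windows (0.68, 0.150) and all other windows together (1.003, p = 1) did not pass Fisher's exact test. Windows were treated as independent in these tests, which neighbouring windows are not, so the p-values may be too small.

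**Figure D1:**
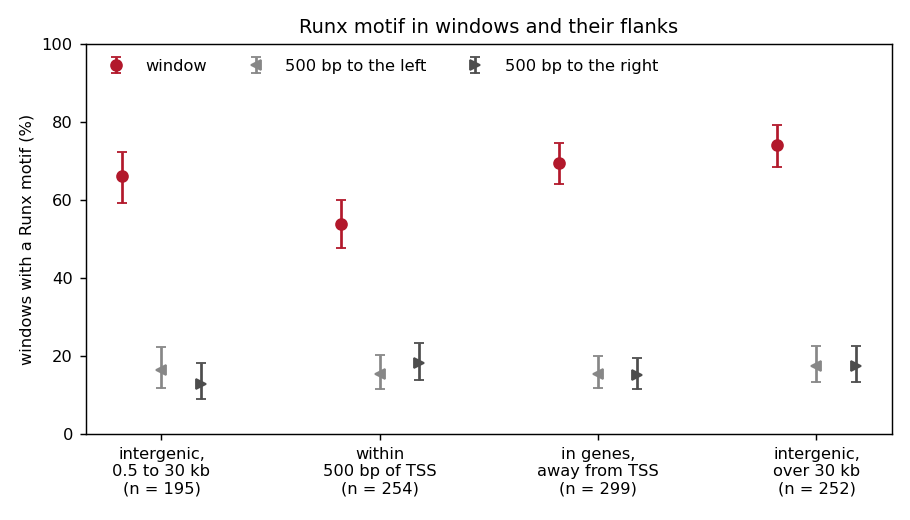
Share of 101-bp windows with a Runx motif (y axis, %) in 4 classes of windows, for the window itself and for stretches of the same length centred 500 bp to the left and right. Points are shares and bars Wilson 95% intervals; the 195 intergenic windows 0.5 to 30 kb from a TSS stood at 66.2% against 16.4% and 12.8% in their flanks, and promoter windows were lowest at 53.9%.

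Motif matches were concentrated at the window centre. Within 20 bp of the centre there were 11.3 matches per kb of member sequence, against 1.39 per kb at 400 to 520 bp from it. In 73 of the 129 members with a motif (56.6%, 48.0 to 64.8) the match nearest to the centre lay within 20 bp of it. Part of that share is built in by the short window and by taking the nearest match, and no expected share was computed. The same central density was 8.07 per kb in windows within 500 bp of a TSS, 12.5 in windows in genes and 13.5 in distal windows.

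**Figure D2:**
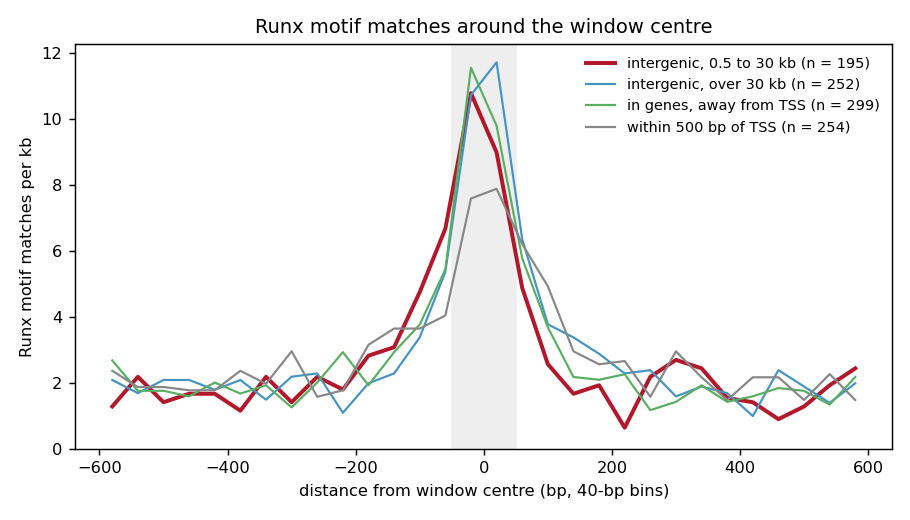
Runx motif matches per kb (y axis) in 40-bp bins by distance from the window centre (x axis, bp), one line for each class of windows, with the 101-bp window shaded. In the intergenic windows 0.5 to 30 kb from a TSS the density was 10.8 per kb in the bin just left of the centre and fell to 1.41 per kb in the bin around -500 bp.

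The letters of the match were compared with those in the flanks as a description. Taking in each member the match nearest to the centre, TGTGGT accounted for 57 of 129 (44.2%), TGCGGT for 34 (26.4%), TGTGGC for 26 (20.2%) and TGCGGC for 12 (9.30%). Among the 62 matches in the flanks, TGTGGC was as common as TGTGGT (24 and 23 matches) and TGCGGT was seen 5 times (8.06%). A C preceded the match in 68 of 129 members (52.7%) and a T followed it in 76 (58.9%). For these neighbouring letters no share in flanks or other windows is given to set beside them. The match read in the direction of the nearest gene in 65 of 129 members (50.4%).

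Motif shares were then set out by distance from the deposited TSS. Some members deposited as over 500 and up to 1000 bp away lay within 500 bp of a GENCODE TSS. Among them were the windows of Dscr3 (116 bp, with the motif) and Hes1 (7 bp, without it). Of the 16 members over 500 and up to 1000 bp away, 6 held the motif (37.5%, 18.5 to 61.4), against 31 of 46 at 1 to 5 kb (67.4%, 53.0 to 79.1), 30 of 35 at 5 to 10 kb (85.7%, 70.6 to 93.7), 30 of 44 at 10 to 20 kb (68.2%, 53.4 to 80.0) and 32 of 54 at 20 to 30 kb (59.3%, 46.0 to 71.3). The 2 groups compared, members up to 5 kb and members beyond, held it in 37 of 62 (59.7%) and 92 of 133 (69.2%), which did not pass (Fisher's exact test, odds ratio 0.66, adjusted over 3 comparisons p = 0.464). Nor did upstream against downstream members by the same exact test (105 of 163 and 24 of 32, odds ratio 0.60, adjusted p = 0.464). Members in the top and bottom terciles of ranks held the motif in 45 of 68 (66.2%) and 43 of 71 (60.6%), with an odds ratio of 1.27 and an adjusted p of 0.598 by Fisher's exact test.

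The 66 members without a Runx motif were searched for other words. Among words of 7 letters, CTGTCCA and GTGCTGA had the largest excess over the flanks in these windows, in 8 of 66 (12.1%) and 7 of 66 (10.6%), against 2 and 0 of their 132 flanks. Other words came close, such as GCCCTCC in 7 of 66 windows and 2 flanks, and CGCCGGC in 6 of 66 windows and 0 flanks. The shares of CTGTCCA and GTGCTGA in all 1000 windows were 2.8% and 4.7%. Over all 195 members CTGTCCA was in 5.13% of windows and 3.08% of flanks, and GTGCTGA was in 6.15% of windows, below its 7.02% of windows in genes. As background, CTGTCCA and GTGCTGA overlap parts of the RE1 element, the DNA sequence recognised by REST, a repressor of neuronal genes. They were chosen after the values were seen, so their counts are a description with no test, and a match of letters is not a binding site. Both words occurred together, letter for letter, in 4 of the 66 members without a Runx motif and in 0 of the 129 with one. The 0 allows a share of up to 2.33%, at 3 counts, and near matches to the words were not counted. Over all classes both occurred in 10 of 1000 windows, namely 4 members, 1 window within 500 bp of a TSS, 4 in genes and 1 distal window. The first 2 of these members were the best-ranked of all members, so their windows are shown with the same conventions, except that capitals mark the 2 words or their reverse complements.
BC018242 (rank 1, chr9:21754925-21755025): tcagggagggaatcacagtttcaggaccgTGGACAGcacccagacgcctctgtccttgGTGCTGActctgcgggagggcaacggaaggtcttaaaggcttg
Kcnk9 (rank 3, chr15:72399093-72399193): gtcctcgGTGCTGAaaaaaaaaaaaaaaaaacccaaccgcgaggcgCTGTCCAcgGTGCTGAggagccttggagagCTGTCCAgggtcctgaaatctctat
Cacng2 (rank 101, chr15:77950273-77950373): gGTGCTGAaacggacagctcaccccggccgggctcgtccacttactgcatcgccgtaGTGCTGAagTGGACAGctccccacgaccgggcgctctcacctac
Lin28 (rank 218, chr4:133576689-133576789): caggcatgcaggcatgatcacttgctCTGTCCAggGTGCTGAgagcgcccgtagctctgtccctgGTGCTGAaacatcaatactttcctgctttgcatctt

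Kcnk9 encodes a potassium channel, Cacng2 a protein of neuronal calcium channels and glutamate receptors, and Lin28 an RNA-binding protein of stem cells. Either word was present in 11 of the 66 members without a Runx motif (16.7%, 9.57 to 27.4) and in 7 of the 129 with one (5.43%, 2.65 to 10.8). Over all 195 members the count was 18 (9.23%, 5.92 to 14.1), against 6.5% of all 1000 windows.

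Other known binding sequences were searched in the same way on both strands, with the share in all 1000 windows given as the background. AP-1, the complex of Fos and Jun proteins, was searched as TGANTCA and found in 21 members (10.8%, against 11.3% of all windows). TEAD, the partner of YAP, was searched as GGAATG and found in 28 (14.4%, background 11.6%). ETS sites, CCGGAA, were found in 8 (4.10%, background 7.7%), and GC boxes, GGGCGG, in 22 (11.3%, background 13.8%). The CCAAT box, CCAAT, was found in 22 (11.3%, background 11.7%), the E-box, CANNTG, in 73 (37.4%, background 37.1%), SOX sites, ACAAAG, in 14 (7.18%, background 6.4%) and CRE, TGACGTCA, in 4 (2.05%, background 1.4%). None of the 8 differed between members and all other windows after adjustment (Fisher's exact test, two-sided). The smallest adjusted p of these exact tests was 0.287, for ETS (odds ratio 0.46, unadjusted p = 0.0358), and this was the only 1 of the 8 with an unadjusted p under 0.05. In the top tercile of ranks alone, ETS letters were in 1.47% of members against 12.5% of other windows (Fisher's exact test, adjusted p = 0.0462). The other windows are a mixture of unlike classes. Over all ranks ETS letters were in 22.4% of windows within 500 bp of a TSS, but in 1.67% of windows in genes and 2.78% of distal windows, both below the 4.10% of members. GC boxes stood likewise at 31.9% near the TSS against 5.69% in genes and 7.14% in distal windows. AP-1 letters stood the other way round, at 2.76% near the TSS, 15.4% in genes and 15.5% in distal windows. These shares by class were not tested.

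The flanks and genome tiles gave a second background for these letters, as a description with no test. AP-1 letters occurred in 9 of 390 flanks (2.31%, 1.22 to 4.33) and in 2.93% of the genome tiles that met the rule. TEAD letters occurred in 23 of 390 flanks (5.90%) and 5.49% of tiles. E-box letters, by contrast, were found in 39.0% of flanks and 41.5% of tiles, close to the 37.4% of members. Of the 21 members with AP-1 letters, 18 also held a Runx motif, so that the AP-1 letters were held by 14.0% (9.01 to 21.0) of members with the Runx motif and 4.55% (1.56 to 12.5) of those without it. No AP-1, TEAD, CCAAT or CRE match shared letters with a Runx match, whereas E-box matches did so in 16 members, SOX matches in 4, and ETS and GC box matches in 1 each.

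**Figure D3:**
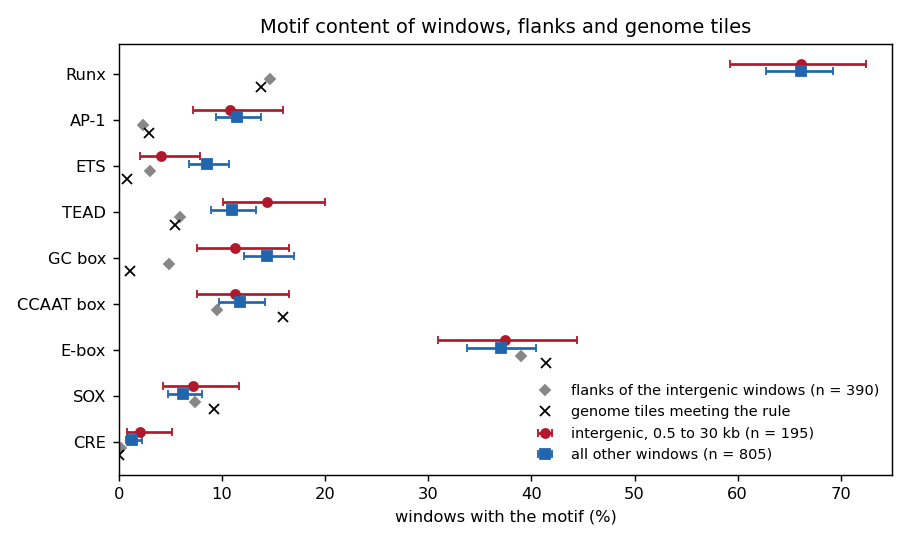
Share of windows with each motif (x axis, %) in the 195 intergenic windows 0.5 to 30 kb from a TSS, in the 805 other windows, in the 390 flanks of the former and in 101-bp genome tiles that meet the same rule. Bars are Wilson 95% intervals; AP-1 stood at 10.8% in the 195 windows against 2.31% in flanks and 2.93% in tiles, while E-box shares ranged only from 37.0% to 41.5%.

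In base composition the members lay closer to gene-body and distal windows than to promoters. Their median GC content was 53.5% (quartiles 47.5 and 60.4), against 65.3% within 500 bp of a TSS and 50.5% both in genes and in distal windows. At least 1 CpG was present in 161 of 195 members (82.6%, 76.6 to 87.2), against 84% of all windows. All 254 windows within 500 bp of a TSS held a CpG, so members differed from them (Fisher's exact test, adjusted over 4 comparisons p = 3.28e-13). The shares in genes (77.3%) and in distal windows (77.0%) did not differ from that of the members past the threshold (Fisher's exact test, odds ratios 1.39 and 1.42, both adjusted p = 0.231). CpG was present in 71.8% of the flanks of members and in 50.2% of the genome tiles. In 53 members a CpG shared letters with a Runx match, since TGCGGT and TGCGGC contain one.

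The position of the members was then described relative to the genes on either side. Each member had exactly 1 flanking gene on its left and 1 on its right, and the distance to the nearest TSS, which the rule used, had a median of 10.03 kb (quartiles 3.48 and 21.5). By the deposited annotation, 163 members lay upstream of the nearest TSS (83.6%, 77.8 to 88.1) and 32 downstream, beyond the end of the gene. All 16 members within 1 kb were upstream, as were 42 of 46 at 1 to 5 kb, 29 of 35 at 5 to 10 kb, 30 of 44 at 10 to 20 kb and 46 of 54 at 20 to 30 kb. A downstream window has the gene itself between it and the TSS, so the rule alone makes the upstream side more frequent. Genome positions that meet the rule were therefore used as the comparison. They were not matched to the windows by distance, with which the side varied.

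By GENCODE, 171 of 1000 windows met the rule and 145 of them lay upstream (84.8%, 78.7 to 89.4), while 74.6% of genome positions that met it did. Without matching for distance, the windows exceeded this share by 10.2 percentage points (exact binomial test, two-sided, p = 0.00198). With members limited to 20 kb the excess was 6.62 points and no longer passed the exact binomial test (p = 0.0916). By the gene deposited as nearest, which for 66 members was the other flanking gene, only 56.1% of 189 members lay upstream, 18.5 points below the same genome share (exact binomial test, p = 3.36e-08). The other 6 members, among them the Nfkb2 and Fosl1 windows, were left out because that gene was neither of their flanking genes. In 53 of those 66 members the deposited gene was one whose end, and not its start, faced the window, so its distances were of another kind from those of the genome positions.

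Flanking genes ran in the same direction (tandem) around 106 members (54.4%, 47.4 to 61.2), away from each other with both starts facing the window (divergent) around 74 (37.9%, 31.4 to 44.9) and towards each other (convergent) around 15 (7.69%, 4.72 to 12.3). By GENCODE, the 171 windows that met the rule were 49.7% tandem (42.3 to 57.1), 40.9% divergent (33.8 to 48.4) and 9.36% convergent (5.84 to 14.7), while among genome positions that met it the shares were 55.6%, 31.6% and 12.7%. These shares were not tested. Both flanking TSSs lay within 30 kb of 65 members (33.3%, 27.1 to 40.2) and within 5 kb of 1, the window 747 bp upstream of Socs1 and 2.37 kb from Tnp2. The gap between the flanking genes had a median of 52.0 kb and ranged from 1.25 kb to 1307 kb, the widest being that around the Tle4 window. Runx motifs were present in 48 of 74 divergent (64.9%), 72 of 106 tandem (67.9%) and 9 of 15 convergent members (60%).

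**Figure D4:**
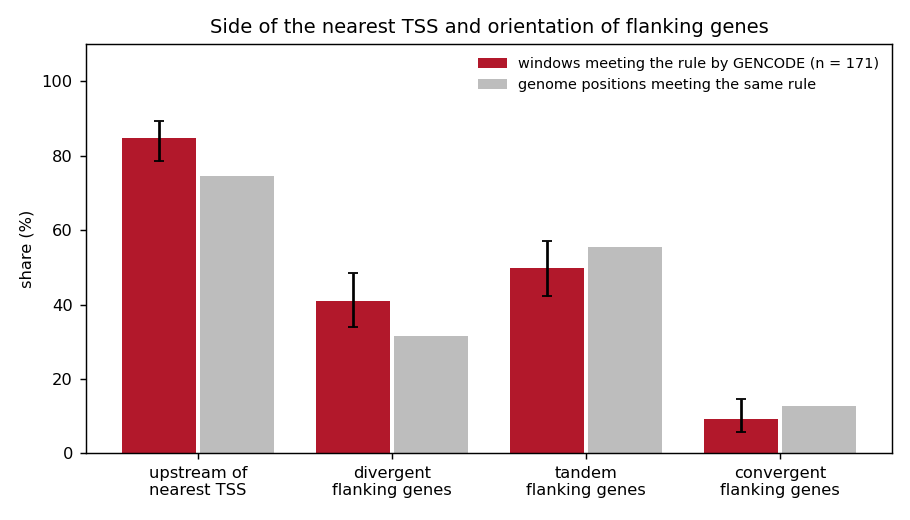
Share (y axis, %) of the 171 windows that met the rule by GENCODE and of genome positions that met it, by side of the nearest TSS and by orientation of the flanking genes. Error bars are Wilson 95% intervals for the windows; 84.8% of the windows lay upstream against 74.6% of the genome positions, and 40.9% lay between divergent genes against 31.6%.

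The annotation changed which windows were members. Of the 195, 147 also met the rule by GENCODE protein-coding genes and 23 fell within 500 bp of a GENCODE TSS, in a gene or not. A further 24 were in such a gene over 500 bp from a TSS, and 1 was over 30 kb away. Outside GENCODE protein-coding genes at any distance lay 166 of the 195. Among the best-ranked, the window near Ccdc77 lay 6881 bp upstream of its deposited TSS and 133 bp inside the gene by GENCODE. The rank 5 window, deposited near Zfp28, lay in a GENCODE protein-coding gene, 17 bp from a coding transcript start. For the rank 1 window the nearest GENCODE TSS was that of 2310047B19Rik, with the window 5222 bp upstream of it. The limits of the rule were just met by Dscr3 (503 bp) and Hmg20b (512 bp) at the near end and by Gm1968 (29808 bp) and 1200004M23Rik (29666 bp) at the far end. Just outside it were the windows of Adamtsl4 (497 bp), Adra1d (491 bp), 4732473B16Rik (30246 bp) and Cops8 (30495 bp).

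The members were spread through the ranked list. Their median rank was 503 (quartiles 238.5 and 755.5), and 68 of them (34.9%, 28.5 to 41.8) were in the top tercile of ranks, against 33.3% of all windows by construction. The share was 34.3% within 500 bp of a TSS, 32.8% in genes and 31.7% in distal windows, and no comparison passed (Fisher's exact test, odds ratios 1.03 to 1.15, adjusted p from 0.837 to 0.920). The top tercile of ranks held 57 of 163 upstream (35.0%) and 11 of 32 downstream members (34.4%), which did not differ past the threshold (Fisher's exact test, odds ratio 1.03, p = 1).

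**Figure D5:**
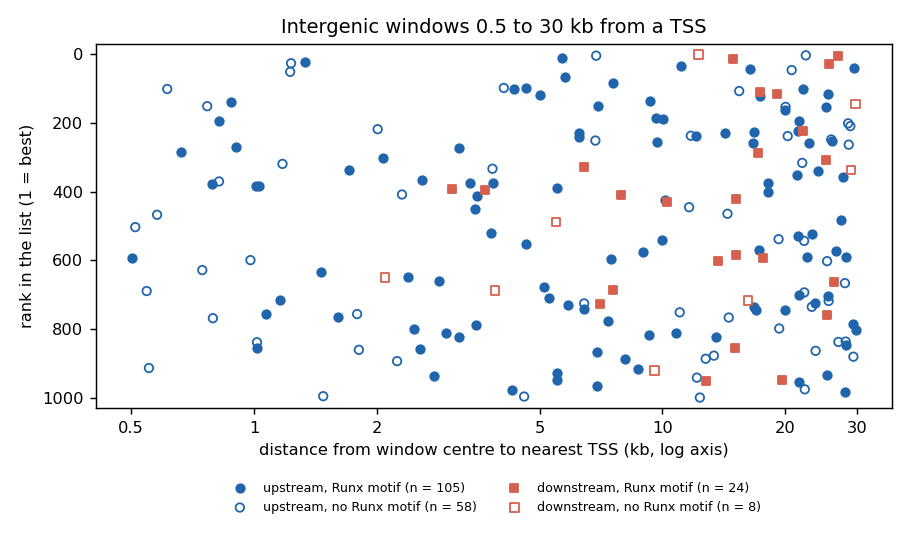
Rank in the list (y axis, 1 at the top) against distance from the window centre to the nearest TSS (x axis, kb, log axis) for the 195 intergenic windows. Circles are the 163 upstream and squares the 32 downstream windows, filled where the window held a Runx motif (105 and 24). Motif-free windows prevailed below 1 kb of the deposited TSS, with 10 of 16.

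By the deposited annotation, the 10 best-ranked members were near a mixed set of genes. Rank 1 lay between the convergent genes BC018242 and Epor, the erythropoietin receptor, 12257 bp and 13.0 kb from their starts. Rank 3 lay 22434 bp upstream of Kcnk9, rank 4 upstream of Ccdc77, and rank 5 beyond the end of the zinc finger gene Zfp28, 26942 bp from its start. Rank 10 lay 5683 bp upstream of Sf3a3, which encodes a splicing factor subunit, and 8.47 kb from the start of Fhl3, which encodes a LIM-domain protein. Rank 15 was beyond the end of Gpx6, a glutathione peroxidase gene, and held 3 Runx motifs. Rank 22 was 1334 bp upstream of Nfkb2, which encodes an NF-kappaB subunit, with 2 motifs, and rank 26 lay 1232 bp upstream of Vstm2l with none. Rank 27 lay 25577 bp downstream of the start of Nenf, and its other neighbour, 109.2 kb away, was Atf3, a stress-induced transcription factor gene. Rank 34 lay 11093 bp upstream of A530088I07Rik. Both of these last windows held a Runx motif and AP-1 letters. In all, 6 of the 10 held a Runx motif.

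Gene lists were used to group the members by what their nearest gene does. A list gene had the nearest TSS of 25 of 195 members (12.8%) and of 90 of all 1000 windows (9.0%), over 11 lists with 450 genes. These lists were written with earlier results of these data known, so their counts are a description with no test. By GENCODE, 21 of the 25 windows met the rule and 22 had the same nearest gene. The windows given below for Pxn, Tagln2 and Dusp1 (rank 352) were nearest to Sirt4 (5249 bp), Ccdc19 and Gm8225 instead, and the Tagln2, Egr2 and Adamts17 windows lay in a protein-coding gene. The Nfkb2 window was 453 bp from the GENCODE start of Nfkb2.

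Among matrix genes, the collagen list had 2 members of its 9 windows, both upstream of Col6a2, which encodes a chain of the microfibrillar collagen VI. They lay 25467 bp (rank 117) and 11020 bp (rank 751) from its start, in the gap to Col6a1, another chain of the same collagen. The rank 117 window held a Runx motif and AP-1 letters, and the rank 751 window held neither. The list for collagen crosslinking and fibril assembly had 4 members of its 8 windows. Prelp, a leucine-rich proteoglycan, had a window 20713 bp upstream (rank 46, no Runx motif), in the gap shared with Fmod, the fibromodulin gene, 95.4 kb away. The Prelp window was absent from the IgG-named list described below. Comp, a cartilage matrix glycoprotein, had one 1461 bp upstream (rank 634, with the motif). Serpinh1, the collagen chaperone, had one 7338 bp upstream (rank 775, with the motif), but 98.6% of the 31-letter words of that window occurred more than once in the genome. Lox, the collagen-crosslinking lysyl oxidase, had one 29235 bp upstream (rank 784, with the motif). The cartilage list had 1 member of 7 windows, 12783 bp downstream of the start of Cilp2, a cartilage matrix gene, with 2 motifs (rank 952). The matrix protease list also had 1, of 2 windows, 26959 bp upstream of Adamts17, a metalloproteinase gene, without the motif (rank 837).

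Among signalling genes, the TGF-beta and BMP list had 3 members of its 20 windows, which is 1.54% of members against 2% of all windows. By the gene deposited as nearest the list had 1 member, and with both flanking genes it had 6. The 3 windows were 23705 bp upstream of Id4, an inhibitor of basic helix-loop-helix factors (rank 863), 13364 bp upstream of Ski, a repressor of TGF-beta signalling (rank 877), and 25224 bp upstream of Bmp6, a BMP ligand (rank 932). Only the Bmp6 window held a Runx motif. The list of Wnt, FGF, IGF and PDGF genes had 0 members of 5 windows. The inflammation list had 3 of 5, at Nfkb2, at Socs1, a suppressor of cytokine signalling (rank 628), and 9569 bp downstream of the start of the cytokine gene Lif (rank 920). Of these 3 the Nfkb2 window alone held the motif.

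The list of AP-1 and early response genes had 7 members of its 12 windows, the most of any list and 3.59% of members against 1.2% of all windows. Fosb, a Fos family gene, had a window 6850 bp upstream (rank 251), without a Runx motif and with AP-1 letters. Dusp1, a phosphatase that acts on MAP kinases, had windows 21348 bp (rank 352, with the motif) and 6431 bp upstream (rank 725, without it). Fosl1, also of the Fos family, had one 2581 bp upstream with 2 Runx motifs (rank 365). Egr2, an early growth response factor, had one 579 bp upstream (rank 467), and Junb, a Jun family gene, one 2094 bp from its start and 278 bp beyond its end (rank 650), both without the motif. The seventh lay near Ier5 (rank 716). Of the 7 windows, 2 held a Runx motif, against 66.2% of all members.

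The actin cytoskeleton and adhesion list had 3 members of 12 windows, each with a Runx motif. The windows were 16728 bp upstream of Pxn, the focal adhesion protein paxillin (rank 227), 25072 bp downstream of the start of Tagln2, transgelin-2 (rank 308), and 5519 bp upstream of Fhl2, a LIM-domain cofactor (rank 388). The YAP/TEAD and SRF list had 0 members of 1 window. The list of the Runx family and its cofactors had 1 member of 9 windows, 22634 bp upstream of Tle4, a Groucho-type corepressor, with 2 motifs (rank 589). With both flanking genes counted instead of the nearest TSS, 38 members adjoined a list gene instead of 25.

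The 195 members had 191 different nearest genes, and no gene had more than 2. The gene deposited as Zfp469 is named Tnrc18 by GENCODE. Besides Col6a2 and Dusp1, whose pairs were 14.4 kb and 14.9 kb apart, Wisp2 and Zfp469 had 2 each. Wisp2, a matricellular gene of the CCN family, had windows 19901 bp (rank 162) and 5876 bp upstream (rank 729), each with 2 Runx motifs and 14.0 kb apart. The Zfp469 windows, 5025 bp (rank 119) and 5513 bp upstream (rank 928), lay 488 bp apart and were the only members within 1 kb of another. Within 10 kb, 7 members had another window of the list.

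A second deposited list carries IgG in its name as well. Each list ends at 1000 entries, and peaks beyond its end were not analysed here, so a window can go unshared by falling past the end of the other list. Both lists are named for RUNX3-FLAG, of which there was 1 library, and sharing between them therefore describes the peak calling and is no replicate. At least 1 bp was shared by 181 of 195 members (92.8%, 88.3 to 95.7), against 91.3% of all windows, and 143 (73.3%) were identical. Sharing did not differ from that of any other class past the threshold (Fisher's exact test, odds ratios 1.17 to 1.55, each adjusted p = 0.734). Among the shared members the ranks in both lists differed by a median of 7 and at most 128, and 175 of 181 were within 50 ranks. The 14 members not shared had a median rank of 837.5 and 10 of them were in the bottom tercile of ranks. They included the windows of Prelp (rank 46), Cilp2 and Adamts17, the lower-ranked windows of Wisp2 and Zfp469, and 9 others. Why the Prelp window went unshared at so high a rank was not tested. By the same rule the second list had 193 members, of which 132 (68.4%, 61.5 to 74.5) held the Runx motif and 158 (81.9%, 75.8 to 86.7) lay upstream.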

How the data were processed

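Reads were aligned by the authors with bowtie to mm9, and CisGenome was used to call peaks over input, with limits on the P value and false discovery rate. The control of the second, IgG-named list was not given in the sources used here. The deposited values were ranks, positions and distances in bp, with no counts or peak heights, and both lists are named for RUNX3-FLAG. Positions count from 0 with both ends included, so each window is 101 bp and coordinates are printed from 1.

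Flanking genes and distances were taken from the deposited RefSeq neighbours. GENCODE vM1 on the same build gave genome shares, on a grid of every 20 bp of 20 chromosomes with protein-coding genes. Sequences were read from the reference of that build. Motifs were sought on both strands. Fisher, McNemar and binomial tests used scipy 1.17.1, with Benjamini-Hochberg adjustment at 0.05, in Python 3.11.15 with pandas 2.3.3 and numba 0.67.0. The motif search, the Fisher and McNemar tests and the placement of positions among genes were tested on simulated data. The other functions were not. Named genes were the 10 best-ranked members, genes with 2 members, list genes (up to 5 per list), the windows next to each limit and members within 1 kb of another. The members and the gene lists were chosen with earlier results of these data known. Some items are not reported here.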

Additional observations from a re-analysis of the deposited data

How the results depend on the processing

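The cause of each change below was not tested unless given. Of 380 values recomputed, 51 belonged to results that passed their test, and all but 5 of these kept direction and call. The motif excess over promoter windows kept its direction under all 11 alternatives (odds ratios 1.50 to 2.13) and lost its call in the top tercile of ranks (1.59), in wider windows reaching 100 bp to either side of the centre (1.75) and at 51 bp (1.50). The excess over both flanks and the CpG deficit against promoter windows kept their calls under every alternative tried. The upstream excess, which rests on GENCODE already, was 6.62 points without its call at 20 kb. By the gene deposited as nearest it was -18.5 points, where the gene is chosen by another distance than in the genome share. With members of the deposited annotation, set against the same GENCODE genome share, it was 8.96 points. That comparison was added after seeing the data and mixes both annotations.

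Limiting the list to the top tercile of ranks left 68 members by construction, with 29.4% divergent, 67.6% tandem and 2.94% convergent. Both flanking genes gave 38 list members in place of 25. The cartilage list had 0 by the gene deposited as nearest and in the IgG-named list. ETS alone gained a call, in the top tercile of ranks (odds ratio 0.105).

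All other reversals were of odds ratios that passed no threshold before or after. For the Runx motif these were 1.09 against windows in genes by GENCODE, and against all other windows 0.984 with 1 window per 10 kb, 0.861 in the top tercile and 0.911 at 51 bp. By GENCODE the motif comparisons within members became 1.09 by side, 1.21 by distance and 0.857 by rank, the last being 0.856 in wider windows. For AP-1 they were 1.14 at 50 kb, 1.05 from 1 kb, 1.12 by GENCODE and 1.04 in the top tercile. CCAAT reached 1.03 and E-box 0.987 in wider windows, with E-box at 0.856 at 20 kb. In the top tercile E-box was 0.930, SOX 0.809 and CRE 0.644. For rank against promoter windows the values were 0.988 in the IgG-named list, 0.929 at 20 kb, 0.902 at 50 kb, 0.985 from 1 kb, 0.723 for the first 100 ranks and 0.915 for the first 500. Against windows in genes they were 0.993 at 20 kb and 0.964 at 50 kb. Against distal windows they were 0.968, 0.893 and, for the first 500 ranks, 0.900. Against all other windows they were 0.965, 0.923, 0.965 for the first 100 and 0.987 for the first 500. First ranks by side gave 0.731 for the first 500. For sharing, members up to 50 kb gave 0.909, 0.921 and 0.949 against promoter, gene and all other windows, centres within 500 bp gave 0.976 against promoter windows, and identical windows gave 0.954 against windows in genes.

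No paired analysis was possible because groups had 1 library apiece, and there was no replicate to leave out. The comparison of motifs by rank could not be made in the top tercile of ranks. Depth is unknown, so no limit on detection can be given.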
